A study of Mus musculus with 3 samples.

Results

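The replication-dependent histone genes supply the bulk of the H1, H2A, H2B, H3 and H4 proteins that package newly copied DNA, and their RNA was described here in naive CD4 T cells. They were taken as the protein-coding genes whose symbol starts with Hist1h, Hist2h, Hist3h or Hist4h in the GENCODE M21 annotation of the mouse assembly GRCm38 (mm10). This gave 67 genes of 55536 gene entries, or of 22028 protein-coding genes, and 54 of the 67 lie on chromosome 13. The RNA came from a male mouse of the strain B6.SJL-Ptprca Pepcb/BoyJ aged 5 months, whose naive CD4 αβ T cells, labelled as thymus-derived, were taken as primary cells. PolyA-selected RNA was sequenced in 3 technical libraries of 1 biological replicate, so there is 1 group, no treatment, no other animal and no comparison between conditions. Every SD and p-value below measures the spread of estimates between technical libraries only. For genes with shared sequence this spread includes how reads were divided among the genes. No sort or gate is given in the labels used here.

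Replication-dependent histone genes are mostly intronless, lie in clusters and are transcribed in S phase, when new chromatin is assembled. Their mRNAs are known for ending, without a polyA tail, just after a conserved stem-loop that the stem-loop binding protein SLBP holds through processing, translation and decay. Replacement histones such as H3.3 and H2A.Z come from ordinary spliced and polyadenylated mRNAs and are made through the whole cell cycle, also in cells that do not divide. PolyA selection keeps RNA that carries a polyA tail, so the values below are levels of the histone RNA that this selection left in the libraries.

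Depth came to 14837442 expected counts in library 1, 18207118 in library 2 and 17505621 in library 3, an expected count being the deposited estimate of reads per gene. TPM is the deposited abundance after division by transcript length, on a scale that sums to the same total in each library. A value with ± is the mean and SD of the 3 libraries. A count of 0 allows up to 3 counts, which on a transcript of 500 bases is 0.775, 0.597 and 0.652 TPM in libraries 1, 2 and 3. Such limits cover counting error only. The label was checked on marker genes. All 8 naive CD4 T cell markers were detected, among them Cd3e at 761 ± 28.8 and Cd4 at 444 ± 6.42 TPM. Cd8a stood at 0.14 and Cd8b1 at 17.0 TPM. The summed TPM of the lists for other cells ranged over the libraries from 2.07 to 2.96 for 4 B cell genes. It ranged from 2.06 to 3.35 for 4 myeloid genes, from 1.40 to 2.32 for 4 erythroid genes and from 0.24 to 1.40 for 3 natural killer cell genes. It ranged from 6.92 to 8.56 for 4 thymocyte genes, nearly all of it Dntt. Ribosomal RNA entries held 0.575%, 1.47% and 0.635% of TPM in libraries 1, 2 and 3, highest in library 2.

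The stem-loop was looked for by the histone stem-loop pattern of 16 bases, on the sense strand of every annotated transcript. It was found in 48 of the 72 protein-coding transcripts of these genes, in 46 genes, and in 62 of 58787 protein-coding transcripts in all (0.105%). The sequences of the most abundant members are shown because some of their annotated transcripts end soon after this element and others go on far beyond it. They are from GENCODE M21 on GRCm38, written 5′ to 3′, with the stem-loop in capitals.
Hist1h1c (chr13:23739507-23739532, plus strand): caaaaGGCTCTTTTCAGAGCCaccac
Hist3h2a (chr11:58955167-58955192, plus strand): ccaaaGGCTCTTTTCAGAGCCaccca
Hist2h2aa2 (chr3:96239779-96239804, minus strand): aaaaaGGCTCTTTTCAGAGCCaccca
Hist1h2ao (chr13:21810893-21810918, plus strand): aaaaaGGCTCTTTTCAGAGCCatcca
Hist1h2ap (chr13:21833026-21833049, minus strand): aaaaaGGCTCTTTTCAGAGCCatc
Hist1h4m (chr13:21812124-21812147, plus strand): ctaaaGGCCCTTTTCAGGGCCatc
Hist1h4n (chr13:21831793-21831818, minus strand): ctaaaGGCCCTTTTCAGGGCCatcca
Hist1h4d (chr13:23581945-23581970, plus strand): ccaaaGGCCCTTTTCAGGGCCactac
The first 5 share their 16 stem-loop letters, the commonest form, which occurred in 26 genes: 3 for H1, 10 for H2A, 8 for H2B and 5 for H3. No H4 gene had that form. The form shown for the 3 H4 genes occurred in 7 genes, all of them for H4. The annotated transcripts of Hist1h2ap and Hist1h4m end 3 bases after the stem-loop. That of Hist2h2aa2 ends 35 bases after it and those of Hist1h2ao and Hist1h4n 31 bases after it. The annotated transcripts of Hist1h1c, Hist1h4d and Hist3h2a go on for 840, 770 and 1643 bases.

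RNA of these genes was unevenly spread over them. Their summed TPM was 399, 395 and 381 in libraries 1, 2 and 3 (392 ± 9.45), from 2635, 3434 and 3097 expected counts. The median gene had 2.07 ± 0.13 TPM, beside 0.36 ± 0.01 TPM over all protein-coding genes. Of the 67 genes, 33 were detected, that is, no library fell under 1 TPM, beside 44.6% of all protein-coding genes. In bulk RNA, few cells with much of a transcript and many cells with little cannot be told apart. A mean of at least 1 TPM was reached by 40 genes and a mean of at least 10 TPM by 8. A further 16 genes had means between 0.07 and 0.77 TPM. In all 3 libraries 11 genes were listed at 0 counts, beside 20.4% of protein-coding genes. The 5 genes of highest mean TPM, Hist2h2aa2, Hist1h2ap, Hist1h1c, Hist3h2a and Hist1h2ao, held 47.4 ± 2.22% of the summed TPM.

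**Figure D1:**
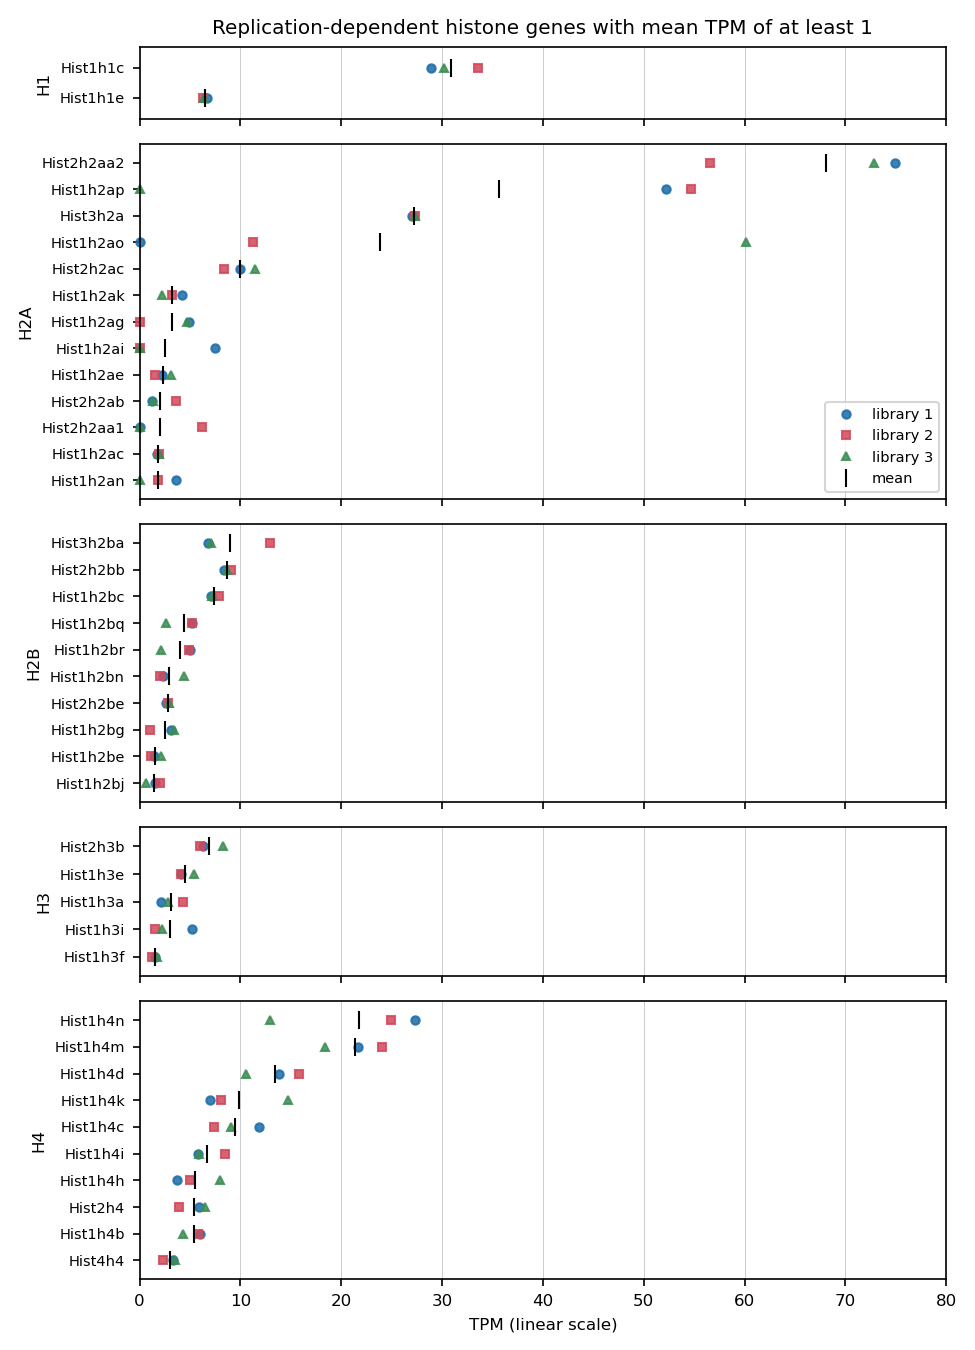
TPM (x axis, linear scale) of the 40 genes with a mean TPM of at least 1, by histone type, with a point for each of the 3 libraries and a black bar for the mean. Only 8 genes have a mean of at least 10 TPM, and several genes are at 0 in a library, among them Hist1h2ap in library 3 and Hist1h2ao in library 1.

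By histone type, the 18 genes for H2A had the largest sum, 190, 178 and 187 TPM in libraries 1, 2 and 3 (185 ± 6.0), which was 47.2 ± 1.95% of the histone TPM. The 13 genes for H4 summed to 103 ± 7.73, the 18 for H2B to 45.5 ± 3.57, the 6 for H1 to 38.7 ± 2.34 and the 12 for H3 to 19.9 ± 0.78 TPM. H2A and H4 are partners of H2B and H3 in the nucleosome core, and the sums for the partners were not alike. The ranges over libraries did not overlap between any of the 5 types, and the nearest were H2B, whose lowest sum was 42.3 TPM, and H1, whose highest was 41.3 TPM. This order rests on division by annotated length. In CPM, expected counts scaled to library totals and not divided by length, H2A genes summed to 78.5 ± 1.06, H4 genes to 39.6 ± 2.38, H1 genes to 36.4 ± 3.35, H2B genes to 20.1 ± 1.39 and H3 genes to 6.80 ± 0.24 CPM, with H1 above H2B. In the older deposited counts H1 had the highest mean, at 41.0 ± 3.58 CPM against 39.7 ± 0.96 CPM for H2A. That difference was smaller than the SD of H1. Hist2h2aa1, Hist2h2aa2, Hist1h2ao and Hist1h2ap had 0 older counts in every library. In 15 genes the annotated transcript that held the most TPM stops at the stop codon, and these 15 genes summed to 43.4 ± 5.98 TPM.

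Linker histones of the H1 type bind DNA where it enters and leaves the nucleosome. Hist1h1c, which encodes H1.2, had 29.0, 33.6 and 30.2 TPM in libraries 1, 2 and 3, from 376, 565 and 465 expected counts (chromosome 13, 23738808 to 23740367, plus strand, a single exon). Library 2 was highest, and the value differed between libraries beyond counting noise (adjusted p = 0.00275, chi-square test over all genes with Benjamini-Hochberg adjustment, highest over lowest scaled count 1.26). Hist1h1e, which encodes H1.4, had 6.71, 6.32 and 6.44 TPM, and these libraries lay close together (adjusted p = 0.929). The other H1 genes stayed under 1 TPM. Hist1h1a had 0.49 ± 0.22, Hist1h1b 0.47 ± 0.32, Hist1h1d 0.24 ± 0.05 and Hist1h1t 0.07 ± 0.06 TPM. Hist1h1t, the testis linker histone gene, had 0, 1 and 1 counts, and the core histone genes of testis, Hist1h2aa and Hist1h2ba, had 0 counts in every library.

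Among the H2A genes, Hist2h2aa2 had the highest estimated TPM of all 67 genes, with 74.9, 56.5 and 72.8 TPM in libraries 1, 2 and 3 (chromosome 3, 96239749 to 96240276, minus strand). Library 2 was lowest, and the libraries were not called different (adjusted p = 0.0611). All 50-base windows of Hist2h2aa2 also occur in Hist2h2aa1, so its reads cannot be told apart from those of that gene. Hist3h2a had 27.0, 27.3 and 27.4 TPM (chromosome 11, 58954685 to 58956830, plus strand), from 487, 639 and 585 counts. The 3 libraries were nearly equal (adjusted p = 0.358), and 68.5% of the 50-base windows of its transcripts occur in no other gene. Trim17 overlaps Hist3h2a on the same strand and had 5.89, 11.8 and 10.2 counts. Hist2h2ac had 9.97, 8.34 and 11.5 TPM. Hist1h2ap had 52.2, 54.7 and 0 TPM (chromosome 13, 21833026 to 21833507, minus strand). Hist1h2ao had 0, 11.3 and 60.2 TPM (chromosome 13, 21810465 to 21810944, plus strand). Those genes are a near-identical pair, described below with their sum. Hist1h2ak, Hist1h2ag, Hist1h2ai, Hist1h2ae, Hist2h2aa1, Hist2h2ab, Hist1h2ac and Hist1h2an had means between 1.81 and 3.24 TPM. Of these, Hist1h2ag, Hist1h2ai, Hist2h2aa1 and Hist1h2an were at 0 in at least 1 library.

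Counts of single H2A genes depend on how reads were divided among genes with the same letters. The 18 genes encode 9 distinct proteins, and 9 of the genes encode the same protein. Those 9 genes, Hist1h2ap and Hist1h2ao among them, summed to 72.2, 72.7 and 71.4 TPM in libraries 1, 2 and 3 (72.1 ± 0.65). The sum varied far less between libraries than Hist1h2ap (35.6 ± 30.9) or Hist1h2ao (23.8 ± 32.0) did alone. Hist2h2aa1 and Hist2h2aa2, which encode another H2A protein, summed to 70.2 ± 6.51 TPM.

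Among the H2B genes, 10 of 18 reached a mean of 1 TPM and none reached 10. Hist3h2ba was the highest, with 6.78, 12.98 and 7.06 TPM in libraries 1, 2 and 3 (chromosome 11, 58948920 to 58949533, plus strand). Library 2 stood apart from the others (adjusted p = 0.000203, highest over lowest scaled count 2.08), and without library 2 the adjusted p was 0.926. Hist2h2bb had 8.42, 9.03 and 8.63 TPM and Hist1h2bc 7.08, 7.85 and 7.16 TPM, with libraries close together in both. Hist1h2bq (4.36 ± 1.51), Hist1h2br (4.02 ± 1.62) and Hist1h2bn (2.92 ± 1.32) had at most 22.5 counts in any library. Hist2h2be had 2.63, 2.79 and 2.90 TPM from whole counts of 58, 80 and 76, and every 50-base window of its transcript is unique to it. Hist1h2bg, Hist1h2be and Hist1h2bj had means of 2.51, 1.56 and 1.42 TPM. Of the Hist1h2be mean, 0.80 TPM came from a transcript with no coding sequence, and its coding form Hist1h2be-202 had 0.54, 0.81 and 0.91 TPM. Hist1h2be thus reached a mean of 1 TPM, and counted as detected, only with the non-coding transcript.

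The H3 genes gave the smallest sum. All 12 encode H3.1 or H3.2, 4 genes for H3.1 and 8 for H3.2, which differ at a single residue. The 4 genes for H3.1 summed to 7.33, 7.23 and 5.04 TPM in libraries 1, 2 and 3, and the 8 for H3.2 to 12.9, 11.7 and 15.3 TPM. Hist2h3b had 6.30, 6.03 and 8.27 TPM and Hist1h3e 4.09, 4.16 and 5.36 TPM, both for H3.2. Hist1h3a had 2.17, 4.35 and 2.79 TPM and Hist1h3i 5.16, 1.52 and 2.25 TPM, both for H3.1. Hist1h3f had 1.49 ± 0.25 TPM. Hist1h3i was called different between libraries (adjusted p = 0.041, highest over lowest scaled count 3.19) on 16.02, 6.15 and 8.30 counts. The other H3 genes lay under 1 TPM, 4 of them at 0 counts in every library.

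H4 is encoded by 13 genes whose products have the same 103 residues. All 13 had counts that were not whole numbers, and 10 were detected. Hist1h4n had 27.3, 24.95 and 12.9 TPM in libraries 1, 2 and 3, lowest in library 3 (adjusted p = 5.69e-05). Hist1h4m had 21.7, 24.0 and 18.4 TPM, also lowest in library 3 but not called different (adjusted p = 0.186). Hist1h4d had 13.9, 15.8 and 10.6 TPM (adjusted p = 0.000755), and 89.8% of its 50-base windows are unique to it. Hist1h4k had 6.95, 8.03 and 14.7 TPM and Hist1h4c 11.9, 7.43 and 9.02 TPM, with a different library highest in each. Hist1h4i (6.74 ± 1.53), Hist1h4h (5.52 ± 2.19), Hist2h4 (5.44 ± 1.33), Hist1h4b (5.36 ± 0.90) and Hist4h4 (3.03 ± 0.65) followed. Hist4h4 is the only member on chromosome 6 (136801553 to 136804415, minus strand) and has the longest transcript of the H4 genes, 2863 bases.

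**Figure D2:**
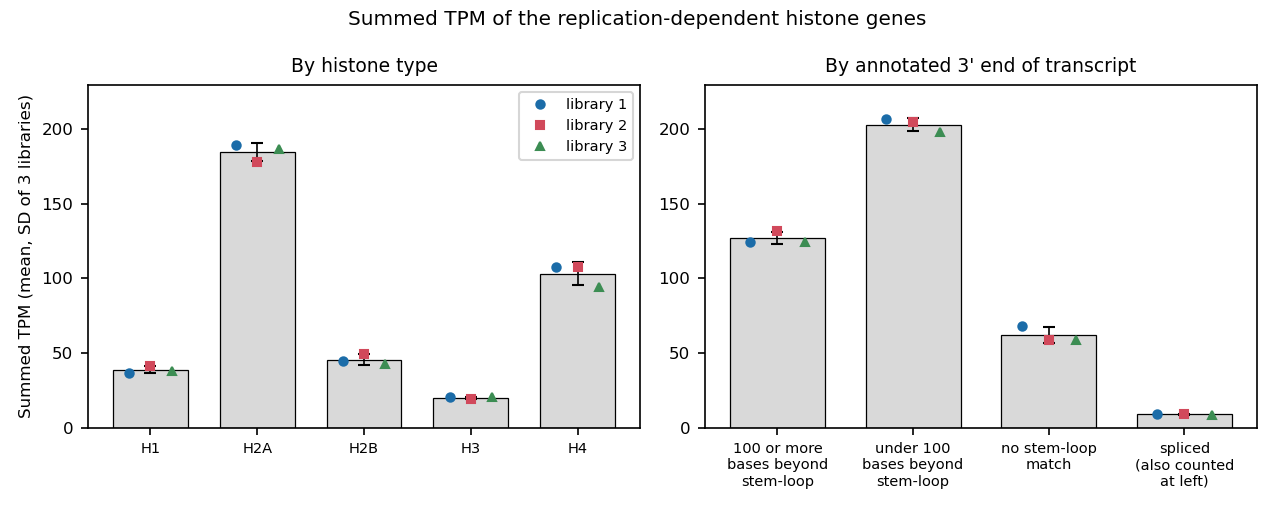
Summed TPM of the 67 genes by histone type (left) and of their transcripts by annotated 3′ end (right), with bars for the mean, error bars for the SD and points for the 3 libraries. H2A genes sum to 185 TPM and H3 genes to 19.9 TPM, and transcripts that end under 100 bases beyond the stem-loop sum to 203 TPM, against 127 TPM for those that end 100 or more bases beyond it.

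Shared sequence touched most members. Of the 67 genes, 51 had a non-whole expected count in at least 1 library, beside 27.9% of all protein-coding genes, and 32 of the 33 detected genes were among the 51. Under 50% of the 50-base windows were unique in 34 genes, and these 34 summed to 248 ± 10.2 TPM, against 144 ± 4.53 TPM for the other 33. No window was unique in 5 genes, Hist2h2aa1, Hist2h2aa2, Hist2h3b, Hist2h3c1 and Hist2h2bb, whose exons are also covered by antisense or other non-coding entries, since windows were matched on both strands. For Hist2h2aa2, every window also occurs in Hist2h2aa1. Every window was unique in 4 genes, Hist1h1a, Hist1h1b, Hist1h1t and Hist2h2be. Outside the 67, 361 other gene entries share at least 1 such window with a member.

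There were 4 pairs of genes that share at least 80% of their 50-base windows in both directions, and each pair encodes the same protein. The longest identical stretch was 452 bases in Hist1h2ao and Hist1h2ap, 381 in Hist1h2bq and Hist1h2br, 366 in Hist1h4m and Hist1h4n and 528 in Hist2h2aa1 and Hist2h2aa2. The first 3 pairs lie within 30919 bases of chromosome 13 in mirror order. From 21806612 to 21837530 come Hist1h2bq (minus strand), Hist1h2ao (plus), Hist1h4m (plus), Hist1h4n (minus), Hist1h2ap (minus) and Hist1h2br (plus). The 8 genes of the 4 pairs held 46.2 ± 1.67% of the histone TPM.

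For Hist1h2ao and Hist1h2ap the division of reads moved more between libraries than the sum did. In the H4 pair and the H2B pair the sum fell in library 3. Hist1h2ao took 0%, 17.0% and 100% of the pair's counts in libraries 1, 2 and 3, while the summed TPM of the pair was 52.2, 66.0 and 60.2. Tested singly, the genes differed between libraries with adjusted p = 4.56e-72 for Hist1h2ao and 2.94e-53 for Hist1h2ap, and the sum with adjusted p = 0.00648 and a highest over lowest scaled count of 1.37. In the deposited posterior mean estimates Hist1h2ap had 30.3, 40.8 and 15.6 TPM and Hist1h2ao 10.5, 11.8 and 30.6 TPM. Hist2h2aa1 took 0%, 11.0% and 0% of its pair's counts and differed when tested singly (adjusted p = 2.78e-14). The sum of that pair, 74.9, 62.7 and 72.8 TPM, was not called different (adjusted p = 0.658). Hist1h4m took 42.4%, 47.1% and 56.9% of its pair's counts. The sum of Hist1h4m and Hist1h4n was 48.95, 48.96 and 31.3 TPM, lower in library 3 (adjusted p = 5.99e-05, highest over lowest scaled count 1.70). Hist1h2bq took 52.1%, 55.2% and 64.0% of its pair's counts. Their identical 381-base transcripts, Hist1h2bq-201 and Hist1h2br-202, had equal counts, 13.7, 18.3 and 7.29 each in libraries 1, 2 and 3. The share thus moved only with the few counts of the pair's other transcripts. The sum of Hist1h2bq and Hist1h2br was 10.2, 10.2 and 4.77 TPM, also lower in library 3 (adjusted p = 0.0447, highest over lowest scaled count 2.02).

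**Figure D3:**
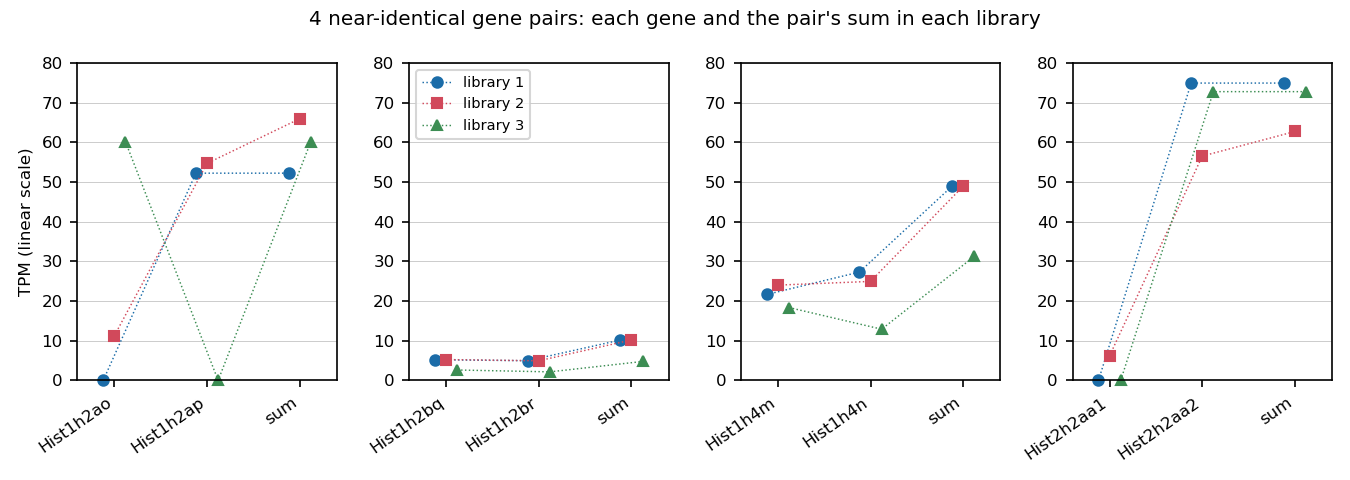
TPM (y axis, linear scale) of each gene of the 4 near-identical pairs and of the pair's sum, with a point for each of the 3 libraries; dotted lines join the values of a library. The points of Hist1h2ao and Hist1h2ap cross between libraries while their sums stay between 52.2 and 66.0 TPM.

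The older deposited table of whole-number counts on GENCODE M4 lists 64 of the genes and gave the paired copies hardly any reads. The 64 genes had 624, 749 and 649 of these counts in libraries 1, 2 and 3. Of the genes with a mean TPM of at least 1, 6 had 0 older counts in every library, and all 6 belong to the pairs: Hist2h2aa1, Hist2h2aa2, Hist1h2ao, Hist1h2ap, Hist1h2bq and Hist1h2br. Hist1h4n had 0, 2 and 0 older counts. Hist3h2a had 147, 173 and 164 and Hist1h1c 127, 159 and 133 older counts, the most of the 67 genes.

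In the test between libraries, 36 of the 67 genes had a mean of at least 10 counts, and 10 of them differed, beside 40.0% of the 13090 genes tested. The members were thus called at a lower share than all genes, and whether that share differs was not tested. At an unadjusted p under 0.05 there were 16. The 10 were Hist1h2ao, Hist1h2ap, Hist2h2aa1, Hist1h4n, Hist1h2ag, Hist3h2ba, Hist1h4d, Hist1h1c, Hist1h3i and Hist1h2bg. With each pair summed to 1 gene, 9 of 32 differed. Among the tested genes with at least 50% unique windows, 4 of 19 differed. Hist1h2ag had 18.3, 0 and 21.2 counts (adjusted p = 0.000112) and Hist1h2bg 15.2, 6.32 and 19.9 counts (adjusted p = 0.0483), both lowest in library 2. Library 2 carried the larger share of ribosomal RNA given above, and its part in these differences was not tested. In Hist1h2ag only 21.1% of the 50-base windows are unique, and its posterior mean estimates were 4.93, 1.52 and 5.77 TPM in libraries 1, 2 and 3. What part the division of reads among genes had in its call was not tested. Without library 2, the calls of Hist1h2ag, Hist3h2ba, Hist1h4d, Hist1h1c, Hist1h3i and Hist1h2bg were lost, with adjusted p from 0.149 for Hist1h4d to 0.986 for Hist1h2ag. Without library 3, Hist1h2ap (0.340), Hist1h4n (0.985), Hist1h4d (0.165) and Hist1h2bg (0.0594) were lost. With a library left out, Hist2h2aa1 (library 2), Hist1h2ag (library 3) and Hist1h3i (library 1) fell under the count minimum and were not tested.

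Annotated transcripts were sorted by where they end. Those that end under 100 bases beyond the stem-loop, 23 transcripts, summed to 207, 205 and 198 TPM in libraries 1, 2 and 3, or 51.8 ± 0.09% of the histone TPM. Those that end 100 or more bases beyond it, 25 transcripts, summed to 125, 132 and 125 TPM, or 32.4 ± 1.08%. The remaining 27 have no match and summed to 68.2, 58.9 and 58.7 TPM. In expected counts, which are not divided by length, the order was the reverse. The transcripts that go on beyond the stem-loop held 59.7 ± 0.90% of the counts and those that end near it 28.9 ± 0.31%, with a median length of 1261 and 482 bases. An annotated end does not say where the sequenced RNA ended.

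A polyA signal, AATAAA or ATTAAA, was looked for on the sense strand in the last 50 bases. It was found in 14 of the 25 transcripts that go on for 100 or more bases beyond the stem-loop, in 1 of the 23 that end nearer, and in 50.2% of all protein-coding transcripts. It is shown in capitals for the longer transcripts of the 2 most counted members and of Hist3h2ba.
Hist1h1c (chr13:23740337-23740352, plus strand): cttctAATAAAaagcg
Hist3h2a (chr11:58956792-58956807, plus strand): tgcccAATAAAataag
Hist3h2ba (chr11:58949502-58949517, plus strand): gtattAATAAAtttgg
Hist1h1c and Hist3h2a thus carry, in 1 annotated transcript, the stem-loop printed above and a polyA signal near the end, and they had the 2 highest expected counts of the 67 genes. Hist2h2aa2, with more TPM, ends 35 bases after its stem-loop and has no such signal there. A match describes letters and not a site in use.

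Spliced histone transcripts were rare. The annotation gives more than 1 exon to 8 transcripts of 5 genes, and these held 8.89, 8.98 and 8.53 TPM in libraries 1, 2 and 3, or 2.25 ± 0.02% of the histone TPM. Hist1h2bc made up most of it. Its only transcript has 2 exons (chromosome 13, 23684199 to 23692908, plus strand), runs 742 bases past the stop codon and holds no stem-loop match. Hist1h2be has 3 transcripts. In the deposited isoform percentages its spliced form Hist1h2be-202 took 38.9%, 72.1% and 42.3% and the unspliced Hist1h2be-203 61.1%, 27.9% and 57.7%, on 26.4, 29.3 and 48.4 counts for the gene. Hist1h2be-203 is annotated as a processed_transcript with no coding sequence and overlaps Hist1h1e on the same strand, so it is no H2B mRNA. The genes of highest mean TPM, Hist2h2aa2, Hist1h2ap, Hist1h1c, Hist3h2a, Hist1h2ao and Hist1h4n, have a single annotated transcript each.

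Reads over histone exons were also assigned to entries outside the 67 genes. Inside histone exons, on the opposite strand, lie 17 entries of 129 to 144 bases with the biotype miRNA, which summed to 213, 247 and 150 TPM in libraries 1, 2 and 3 from 166, 250 and 139 counts. Antisense, lincRNA and processed_transcript entries over histone exons, 7 in all, summed to 4.29 ± 0.67 TPM. Of the 7, 5 lie on the opposite strand. The others, Gm20634 and Gm42743, lie on the same strand as the members they overlap, so strand would not separate their reads. All these entries held 8.54%, 10.3% and 7.63% of the counts of members and overlapping entries together. Whether counting used strand is not given in the sources used here, so reads of the entries on the opposite strand and of the histone genes cannot be told apart either. Of the histone pseudogenes, Hist1h2aj had 4.06 ± 4.10 and Hist3h2bb-ps 1.28 ± 0.53 TPM.

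In these polyA-selected libraries, the replication-dependent genes stood far below the replacement histones. They summed to 399, 395 and 381 TPM in libraries 1, 2 and 3, against 4140, 3928 and 4214 TPM for the 11 replacement histone genes, a log2 ratio of -3.38 ± 0.08. The other way round, replacement over replication-dependent, the ratio was 10.4, 9.94 and 11.1. Ratios in this paragraph hold for the RNA that polyA selection left, and ratios in the cells cannot be read from them. The order differed by histone type. The 12 replication-dependent H3 genes summed to 19.9 ± 0.78 TPM, against 2467 ± 94.5 TPM for H3f3a and H3f3b, both of which encode H3.3 (log2 ratio -6.96 ± 0.01). The 18 H2A genes summed to 185 ± 6.0 TPM, against 1361 ± 69.0 TPM for the 6 replacement H2A genes (log2 ratio -2.88 ± 0.04). For the linker histones the sign was opposite: the 6 Hist1h1 genes had 36.9, 41.3 and 37.8 TPM, against 10.2, 9.17 and 12.4 TPM for H1f0 and H1fx together, with H1fx listed at 0. H3f3b had 1536 ± 191, H3f3a 931 ± 98.2, H2afz, for H2A.Z, 706 ± 31.7 and H2afy, for macroH2A, 264 ± 6.09 TPM. H2afx, for the H2A.X that is phosphorylated at DNA breaks, had 60.4 ± 8.63 TPM.

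**Figure D4:**
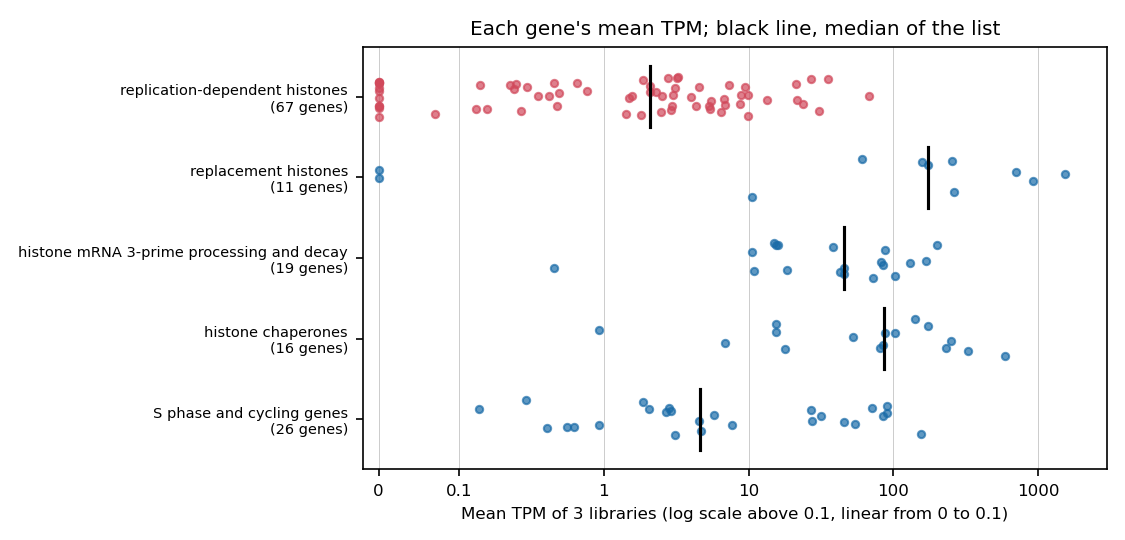
Mean TPM over 3 libraries (x axis, logarithmic above 0.1 and linear from 0 to 0.1) of each of the 67 replication-dependent histone genes and of each gene in 4 other lists, with a black line at the list's median. In these polyA-selected libraries, the replication-dependent genes have a median of 2.07 TPM and the replacement histones one of 173 TPM.

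Genes that process histone mRNA, carry histones or mark S phase were then set beside the members. The histone genes had 33 of 67 detected and a median of 2.07 TPM, against 18 of 19 and a median of 45.5 ± 2.97 TPM for genes of histone mRNA 3′ processing and decay. Slbp, for the stem-loop binding protein, had 211, 163 and 224 TPM in libraries 1, 2 and 3. Tut7, a terminal uridylyltransferase, had 169 ± 4.37, Cpsf1, of the cleavage and polyadenylation complex, 130 ± 6.89 and Cpsf3, its endonuclease, which also cuts histone mRNA, 103 ± 14.3 TPM. Of 16 histone chaperone genes, 15 were detected, with a median of 86.5 ± 3.58 TPM. The highest were Npm1, for nucleophosmin, at 590 ± 60.6, Nap1l4 at 329 ± 34.7, Rbbp4 at 249 ± 13.4 and Anp32e, for a chaperone of H2A.Z, at 232 ± 35.2 TPM. Of 26 S phase and cycling genes, 19 were detected, with a median of 4.63 ± 0.80 TPM. Pcna, the sliding clamp of DNA polymerase, had 155 ± 9.80 TPM, and the helicase subunits Mcm7, Mcm4 and Mcm6 had 91.0 ± 3.62, 90.1 ± 8.58 and 85.4 ± 11.5 TPM. Mki67, which is made in cycling cells, had 0.06, 0.17 and 0.18 TPM.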

How the data were processed

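Naive CD4 T cells of 1 mouse gave 3 technical libraries of polyA-selected RNA, with shearing and a size range of 100 to 300, per the labels. The text beside the deposited files names mm10 as assembly, GENCODE M21 for tables per gene and per transcript, and the older GENCODE M4 for a count table. What aligner, counter and versions were used, and whether counting used strand, is not given in the sources used here. Expected counts (estimated, not always whole), TPM (maximum-likelihood, and separately posterior mean) and isoform percent were deposited by the authors per gene and transcript. Whole-number counts on M4 were deposited per library, 5160325, 5816158 and 5703629 in all, and serve here as an alternative. Length minus effective length was 49 bases. Entries that name no gene (0.247%, 0.200% and 0.325% of expected counts) stayed out of library sizes and tests.

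Symbols, biotypes, exons and transcript sequences came from GENCODE M21, the annotation of the files. Libraries were compared by a chi-square homogeneity test of rounded expected counts over the 13090 genes that averaged at least 10, with TMM scaling (edgeR 4.0.16, R 4.3.3), Benjamini-Hochberg adjustment and a threshold of 0.05 (scipy 1.17.1). In simulated libraries of these 13090 genes it called 17 of 50 genes changed 1.2-fold, 34 of 50 at 1.5-fold, 42 of 50 at 2-fold, 50 of 50 at 4-fold and 8 of 12890 unchanged ones. The simulated counts were drawn for each gene on its own, with counting noise only and no reads divided among genes. These rates thus do not cover members with shared sequence or spread between libraries beyond counting noise. In the real libraries 40.0% of the 13090 genes were called. A count was called whole within 0.01. Windows of 50 bases were matched to all transcripts on both strands, and products were compared as translated coding sequences. Members and lists were chosen with earlier results of these data known. Named are members with a mean TPM of at least 1 or a difference between libraries, the 4 highest genes of each list with Slbp, Mki67 and H2afx, and pseudogenes that reach 1 TPM. The pair rule, the named members under 1 TPM, H1f0, H1fx, Trim17, Gm20634 and Gm42743 were chosen after values were seen. So were the genes under the other observations and the set sums by protein or uniqueness. Alternatives were other TPM and count minimums, DESeq2 size factors (1.42.0) and library totals, posterior means, no length correction, the older counts, rescaling over protein-coding genes, left-out libraries, other windows and other stem-loop settings. A marker gene counted in a list sum is not reported here by itself.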

Additional observations from a re-analysis of the deposited data

Results flagged for a closer look

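Counts appeared in short entries that lie inside histone exons on the opposite strand and are no members, above the limit that a count of 0 allows. Gm44346, inside Hist1h2an, had 83.1, 116 and 64.1 counts in libraries 1, 2 and 3 and a mean of 95.7 TPM on 141 bases, while Hist1h2an had 10.6, 7.12 and 0 counts. Gm44313, inside Hist3h2a, had 22.0, 65.1 and 26.2 counts and a mean of 41.1 TPM. Gm47311, inside Hist2h2aa2, and Gm47313, inside Hist2h2aa1, each had 10.01, 25.8 and 12.2 counts and a mean of 17.5 TPM. Gm44341, which overlaps no member, had the same counts as Gm47311 and Gm47313, so these entries cannot be taken as separate. All 4 entries inside histone exons were highest in library 2.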

How the results depend on the processing

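Of 128 alternative values, 72 stayed within the spread between libraries or within 1.5 times a count and 56 moved. The log2 ratio to the replacement histones, the result with a sign, stayed negative under the alternatives run. The order of the histone types did change: with no length correction H1 (36.4 in CPM) stood above H2B (20.1). In the older counts H1 (41.0 ± 3.58) stood above H2B (8.41) and near H2A (39.7 ± 0.96). Without genes of non-whole counts H2A was at 0. No paired analysis was possible because there is only 1 group. The causes of the moves below were not tested beyond what each setting changes by construction.

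Posterior mean estimates gave a summed TPM of 348, with 33.9 for H1, 162 for H2A, 18.8 for H3 and 90.9 for H4, a median of 2.21, a share of 45.2% in the 5 highest genes and 2.31% in spliced transcripts. They gave list medians of 150, 39.7 and 75.5 TPM for replacement histones, processing genes and chaperones. With no length correction the sum was 182 in CPM, with 78.5 for H2A, 6.80 for H3 and 39.6 for H4, a median of 0.68, shares of 54.3% in the 5 highest genes and 3.49% in spliced transcripts, and a log2 ratio to replacement histones of -3.94. The older counts gave 121 in CPM, with 2.86 for H3 and 29.3 for H4, a median of 0.17 and a share of 70.1%. They gave a log2 ratio of -2.65 and 1 gene that differed between libraries. Older counts fell short of expected counts unevenly among the replacement genes. Over all libraries H3f3a had 231 against 24993 and H2afz 223 against 19005, but H2afy 5017 against 13427. That ratio is thus not on a like scale with the main one. TPM rescaled over protein-coding genes without mitochondrial and ribosomal protein genes gave 512, with 50.6, 241, 59.5, 25.9 and 134.9 for H1, H2A, H2B, H3 and H4 and a median of 2.86.

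Leaving out members with non-whole counts left 1 detected gene and a sum of 4.08 TPM, with 1.03 for H1, 2.77 for H2B and 0.27 for H3. The median was 0 and the 5 highest held 100%. The log2 ratio was -9.97 against all replacement histone genes, to which this filter was not applied. H3f3a and H3f3b among them also had non-whole counts, so this ratio compares a filtered with an unfiltered set. No H4 gene was left, so H4 has no value. At a TPM of at least 5 in every library 15 genes were detected. With pairs as 1 gene the 5 highest held 58.9%, and over genes with counts the median was 2.95. With overlapping entries the sum was 599.7 TPM. Transcripts that go on beyond the stem-loop held 34.99% at a limit of 50 bases and 28.8% at 200 bases. With a minimum mean of 50 counts 6 genes differed. Under 90% unique windows held for 59 genes.

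With a library left out, the median ran from 1.86 to 2.16 TPM and the number of genes that differ from 4 (without library 2) to 11 (without library 1). Genes of few counts are limited by depth: 14 had 3 or fewer counts in every library.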

Other observations

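After polyA selection, the 12 replication-dependent H3 genes together had 20.2, 18.96 and 20.4 TPM in libraries 1, 2 and 3, against 259, 272 and 236 TPM for Cenpa, which encodes the histone H3 variant of centromeres. Their ratio in the cells cannot be read from these values. Hjurp, for the chaperone that loads that variant, had 83.4, 83.3 and 75.2 TPM. Chaf1a, the large subunit of the chaperone that places new H3 and H4 behind the replication fork, was the chaperone gene of the list that was not detected, at 0.92 ± 0.10 TPM. Zfp473, a zinc finger protein of the histone 3′ processing complex, was the processing gene that was not detected, at 0.45 ± 0.17 TPM.

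The Hist1 genes lie in 2 blocks of chromosome 13. The 23 genes of the block that starts nearer the beginning of the chromosome, which holds 3 of the near-identical pairs, summed to 156, 155 and 132 TPM in libraries 1, 2 and 3, and the 31 genes of the other block to 97.3, 100.6 and 99.8 TPM. Of the 54 genes in both blocks, 23 were detected.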
